A study of Homo sapiens with 6 samples.

Results

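The members described here are nascent-strand sequencing (NS-seq) peaks in a 10 Mb domain of chromosome 10 on the long-arm side of the centromere. A peak is a member if its listed start lies at 42000000 or above and below 52000000 on the T2T-CHM13 genome build. The 4 deposited peak lists hold 4805 members among 945863 peaks. Of these, 1585 are in siORCA 1, 1226 in siORCA 2, 875 in control 1 and 1119 in control 2. The domain was chosen from these same lists, by its share of peak-covered length in siORCA samples against control samples. Every siORCA value set against a control value inside it is therefore a description with no test. The samples were U2OS cells, an established human osteosarcoma line, transfected with siRNA against ORCA (2 samples) or with the control siRNA gl3 (2 samples). The labels give no time after transfection and do not say whether replicates came from separate cultures, so the SDs below measure only the spread between these samples. 2 genomic DNA samples, 1 per transfection, were not analysed here, so the DNA copy number of the domain in these cells was not tested.

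Replication of human chromosomes starts at many sites, the origins, where the origin recognition complex loads the replicative helicase. Each origin gives a pair of short new strands that begin with an RNA primer, and NS-seq isolates such strands by size and by their resistance to an exonuclease that digests DNA without the primer. A peak is read as DNA around a site where replication started in some of the cells. ORCA, encoded by LRWD1, is a partner of the origin recognition complex that is known for its place on heterochromatin, the compact chromatin that is dense around centromeres and carries repressive histone marks. Origins often cluster, so neighbouring sites can form zones of dense initiation separated by long stretches with few sites.

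The proximal long arm of chromosome 10 carries RET, which encodes a receptor tyrosine kinase, CXCL12, which encodes a chemokine, ALOX5, which encodes a lipoxygenase, and MAPK8, which encodes the kinase JNK. In the RefSeq gene table of GRCh38.p14, another build, RET is followed by CSGALNACT2, RASGEF1A, FXYD4 and HNRNPF, and further on by the zinc finger genes ZNF239, ZNF485 and ZNF32 and then by CXCL12. All 30 genes of a list chosen for this arm matched that table. Their positions on T2T-CHM13 were not used here, so 0 genes were placed and no peak below carries a gene name. No sequence is printed, because no genome of the files' build was used.

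The lists differ in length, and sequencing depth is unknown because they hold no read counts. The covered length of a list, the sum of its peak lengths, was 86.2 Mb in siORCA 1, 64.0 Mb in siORCA 2, 58.5 Mb in control 1 and 67.1 Mb in control 2. The mean peak width over a whole list was 261 bp in siORCA 1, 323 bp in siORCA 2, 323 bp in control 1 and 284 bp in control 2. Values in the domain are therefore given both as listed and as a share of the list.

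The domain as a whole held a larger share of the peak-covered length in both siORCA samples than in both control samples. Peaks covered 499882 bp of it in siORCA 1 and 472874 bp in siORCA 2, against 297921 bp in control 1 and 337566 bp in control 2. As a share of each list's covered length this was 0.580% in siORCA 1 and 0.738% in siORCA 2, against 0.509% in control 1 and 0.503% in control 2. The means were 0.659 ± 0.112% in siORCA and 0.506 ± 0.00426% in control (SD, n = 2 each), a log2 ratio of 0.38. The controls lay close together, while siORCA 2 stood well above siORCA 1, and the groups did not overlap. By number, the domain held 0.480% of the peaks of siORCA 1 and 0.618% of those of siORCA 2, against 0.483% and 0.474% in control 1 and 2. Here siORCA 1 lay between the controls, so the groups overlapped. Without siORCA 2 the log2 ratio of covered share in the domain was 0.20, and that of peak share was 0.0039 in place of 0.20.

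Coverage along the domain was uneven in every sample. Next to the centromere, no list held a peak from 39525683 to 41968446, a gap of 2443 kb. Inside the domain, 2 further gaps without a peak in any list ran from 42073720 to 42471290 and from 42637529 to 42986540, 398 kb and 349 kb long. The first 1 Mb of the domain held 10 and 7 peaks in siORCA 1 and 2, against 8 and 13 in control 1 and 2. The values at the bounds of the domain were near or below those of the controls. Just inside the upper bound, from 51 to 52 Mb, the ratio of the mean siORCA share to the mean control share was 0.917, and just outside it, from 52 to 53 Mb, it was 1.01. There the samples had 128 and 112 bp per Mb of the list's covered length in siORCA 1 and 2, against 138 and 100 in control 1 and 2, and overlapped. Just inside the lower bound, from 42 to 43 Mb, the ratio was 0.829, and from 41 to 42 Mb it was 0.797, with at most 1 peak a sample.

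**Figure D1:**
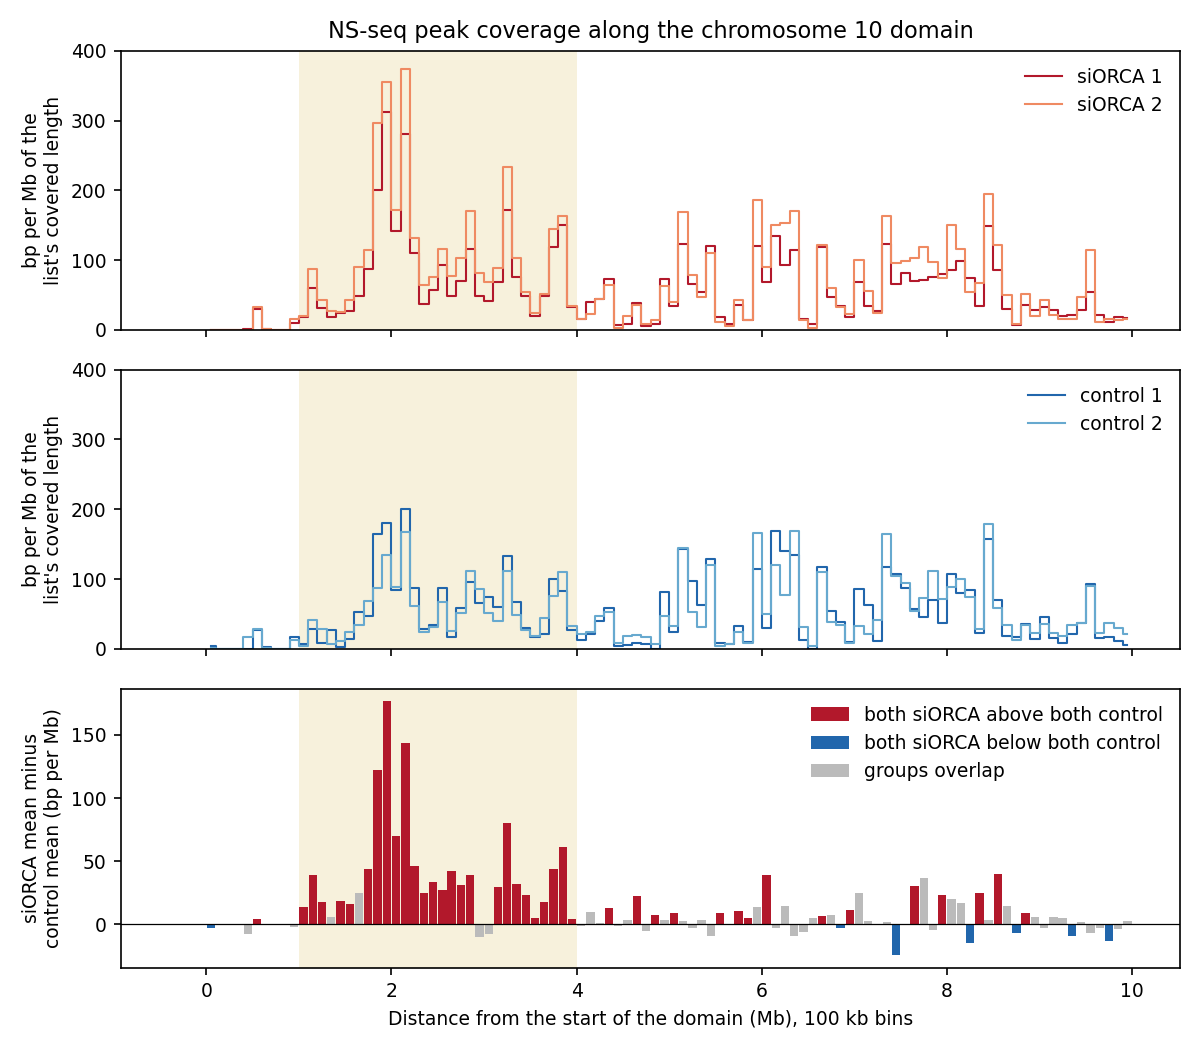
Covered length in 100 kb bins along the domain, in bp per Mb of each list's covered length, for the siORCA samples (top) and the control samples (middle), with the difference of the group means (bottom). The x axis is the distance from the start of the domain in Mb, and the shaded band is the 3 Mb stretch of 30 bins, in 26 of which both siORCA samples lie above both control samples.

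In bins of 100 kb, coverage is given as bp of peaks per Mb of the list's covered length, with each peak placed by its start. Of the 100 bins, 95 held a peak in some sample. In 42 of the 95 each siORCA sample exceeded each control sample, and in 7 each lay below. Over all 29468 bins of the genome that held a peak, 12.7% were higher in this sense and 17.6% were lower, and since the domain was chosen from this contrast nothing is read from the difference. The extent of the rise was set by a rule: the run of bins with the largest sum, where a higher bin adds 1, an empty bin adds 0 and any other bin subtracts 1. The run went from 43.0 to 46.0 Mb and took in 26 higher bins, 0 lower bins and 4 bins in which the groups overlapped. Before it, 1 of 5 bins with a peak was higher, and in the 6 Mb after it 15 of 60 were higher and 6 were lower.

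The 4 overlapping bins were not alike. In the bins from 43.3 and from 43.6 Mb the mean siORCA share was above the control mean, at 1.32-fold and 1.57-fold. Control 1 was the highest sample in the first of them and lay above siORCA 1 in the second. The bins from 44.9 and 45.0 Mb, which adjoin, stood at 0.865-fold and 0.876-fold, below 1, in the middle of the stretch. Over the 30 bins of the stretch the ratio of means ran from 0.865 to 3.66 with a median of 1.64, and 28 of the 30 were above 1. In the 60 bins after the stretch the median was 1.07, with 39 above 1. Over the genome, among bins with a control peak, it was 0.930, with 43.3% above 1.

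The largest differences sat in 1 dense cluster, and the bin from 43.9 Mb led it. That bin had 313 bp per Mb of covered length in siORCA 1 and 355 in siORCA 2, against 180 in control 1 and 135 in control 2, a ratio of means of 2.12. As listed, it held 48 and 44 peaks in siORCA 1 and 2, against 32 and 28 in control 1 and 2. The bin from 44.1 Mb had 281 and 374 bp per Mb in siORCA 1 and 2, against 201 and 167 in control 1 and 2. With the bin from 43.8 Mb, at 201 and 297 bp per Mb in siORCA 1 and 2 and 165 and 87.8 in control 1 and 2, these took ranks 1 to 3 among all 29468 bins by difference of means. In each of the 3 bins the groups did not overlap, and the bins from 43.9 and 44.1 Mb were the densest of the stretch in every sample. The bin from 45.2 Mb ranked 21 by the difference and the bin from 44.0 Mb ranked 42.

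These 5 bins held 48.9% of the difference in the stretch, with a ratio of means of 1.88, and the other 25 bins held 51.1%, with a ratio of 1.55. The stretch was picked for its number of higher bins, so a higher level in most of the other bins is set by that rule. Sorted by their mean over the 4 samples, the 15 denser bins had a ratio of 1.66 and the 15 sparser bins 1.69. The lowest differences in the domain all lay after the stretch. The bin from 49.4 Mb had 66.3 and 96.3 bp per Mb in siORCA 1 and 2, against 107 and 105 in control 1 and 2. The bins from 50.2 and 51.7 Mb followed, with ratios of 0.809 and 0.499, and in all 3 both siORCA samples lay below both controls.

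The lower edge of the rise met the end of the second gap. The first region after it, from 42986541 to 42987039, was in all 4 lists, with 447 and 477 bp covered in siORCA 1 and 2, against 496 and 445 bp in control 1 and 2. The next 2 regions, from 42997793 to 42998297 and from 43001790 to 43002163, were also in all 4 lists. From there to the next region of all 4 lists, which begins at 43107350, the siORCA lists held 3 regions in common that no control list held, from 43025296 to 43025843, from 43056850 to 43057047 and from 43061896 to 43062135. In the same interval 3 further regions were in siORCA 1 alone and 3 in siORCA 2 alone, against 1 in control 1 alone and 1 in control 2 alone. In the 500 kb above 43.0 Mb there were 40 and 34 peaks in siORCA 1 and 2, against 15 and 19 in control 1 and 2, and the ratio of mean shares was 2.13. In the 500 kb below 43.0 Mb, most of it gap, there were 9 and 7 peaks in siORCA 1 and 2, against 7 and 9 in control 1 and 2, with a ratio of 1.03. The lower edge moved with the processing: in lists limited to peaks with a −log10 q of 3 or more the run went from 43.7 to 44.5 Mb, and with bins of 50 kb it began at 43.4 Mb.

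The upper edge was less sharp. In the last 500 kb below 46.0 Mb the share was 372 and 419 bp per Mb in siORCA 1 and 2, against 248 and 282 in control 1 and 2, a ratio of 1.49. In the 500 kb above it, the share was 182 and 150 bp per Mb in siORCA 1 and 2, against 138 and 154 in control 1 and 2, a ratio of 1.14 with overlapping groups. By 1 Mb windows the ratio of mean shares was 1.98 from 43 Mb, 1.61 from 44 Mb and 1.49 from 45 Mb. It was 1.20 from 46 Mb, 1.07 from 47 Mb, 1.09 from 48 Mb, 1.12 from 49 Mb, 1.18 from 50 Mb and 0.917 from 51 Mb. By these windows the ratio was highest beside the gap and lower in each next window to 47 Mb. In 500 kb windows the fall was not steady, with 1.39 from 44.5 Mb and 1.49 from 45.0 Mb. A second, smaller maximum of the 1 Mb windows lay at 50 Mb, where the groups overlapped. That window had 629 and 835 bp per Mb in siORCA 1 and 2, against 608 and 634 in control 1 and 2. The upper edge also differed when a sample was left out. With fewer values to set apart, higher bins can then only be kept or gained, so the rule is looser. Without control 2 the run ended at 51.3 Mb, with a log2 ratio of 0.39 over the run. It ended at 50.7 Mb without siORCA 1 and at 49.2 Mb without control 1, and stayed at 46.0 Mb without siORCA 2.

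**Figure D2:**
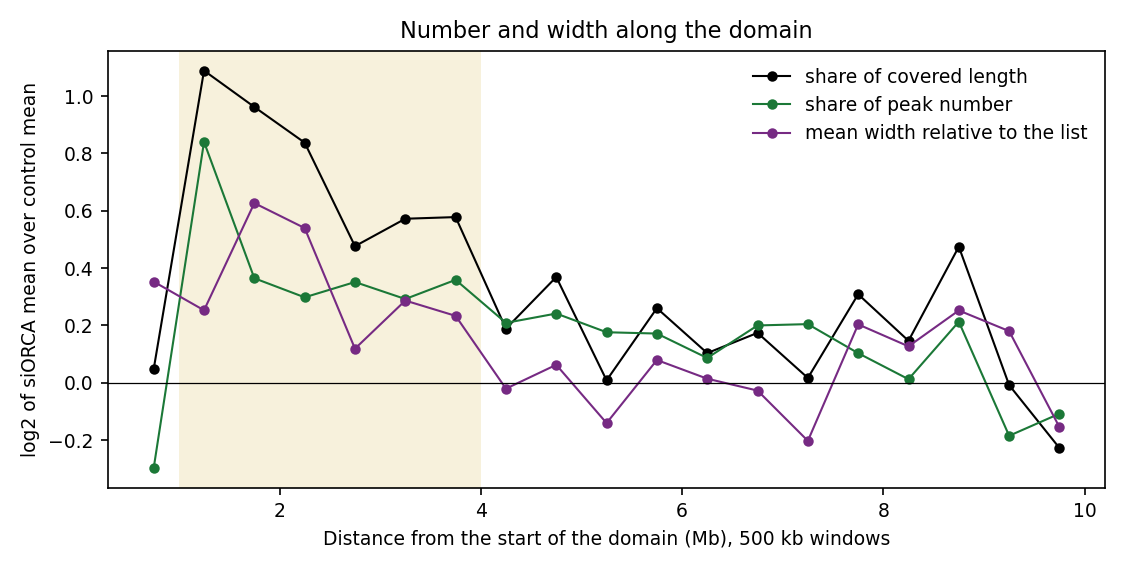
Log2 of the siORCA mean over the control mean in 500 kb windows, for the share of covered length, the share of peak number and the mean peak width relative to the whole list. The x axis is the distance from the start of the domain in Mb, the first 500 kb with at most 4 peaks a sample are left out, the band is the 3 Mb stretch, and all 3 measures are above 0 in each of its 6 windows.

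In the 3 Mb stretch, peaks covered about the same length in both siORCA samples and about the same, smaller length in both controls. Covered length was 225090 bp in siORCA 1 and 220113 bp in siORCA 2, against 111571 bp in control 1 and 115106 bp in control 2. The means were 222602 ± 3519 bp in siORCA and 113338 ± 2500 bp in control (SD, n = 2 each). The ratio of means was 1.96 as listed and 1.67 by share of the list. As a share of the list the stretch held 0.261% in siORCA 1 and 0.344% in siORCA 2, against 0.191% in control 1 and 0.172% in control 2, a log2 ratio of means of 0.74. The 4 ratios of a siORCA sample to a control sample ran from 1.37 to 2.003 in this share. In the other 7 Mb of the domain they ran from 0.961 to 1.24, and the groups overlapped.

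Both more and wider peaks made up the rise, in shares that differed between the siORCA samples. As listed, the stretch held 590 peaks in siORCA 1 and 509 in siORCA 2, against 330 in control 1 and 369 in control 2. Relative to list size this was 0.179% and 0.256% of all peaks in siORCA 1 and 2, against 0.182% and 0.156% in control 1 and 2, and siORCA 1 lay between the controls. Mean peak width in the stretch was 382 bp in siORCA 1 and 432 bp in siORCA 2, against 338 bp in control 1 and 312 bp in control 2. Over the mean width of the whole list, this was 1.46 in siORCA 1 and 1.34 in siORCA 2, against 1.05 in control 1 and 1.10 in control 2. In the full lists, width relative to the list thus separated the groups, and number relative to the list did not. There siORCA 1 differed from control 1 by relative width alone, at 1.40-fold with a peak share of 0.981-fold. siORCA 2 differed from control 1 by 1.28-fold in relative width and 1.41-fold in peak share. In lists shortened to the same covered length, peak share separated the groups too. It was 0.230% and 0.264% in siORCA 1 and 2, against 0.182% and 0.165% in control 1 and 2. That shortening left control 1 whole and dropped the weakest peaks of the other lists. In lists limited to a −log10 q of 3 or more the groups overlapped in peak share. It was then 0.221% and 0.335% in siORCA 1 and 2, against 0.281% and 0.204% in control 1 and 2. The groups also overlapped with peaks joined over 1 kb. There it was 0.166% and 0.234% in siORCA 1 and 2, against 0.177% and 0.156% in control 1 and 2. Median width in the full lists overlapped between groups. It was 256 bp and 309 bp in siORCA 1 and 2, against 258.5 bp and 222 bp in control 1 and 2.

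On the log2 scale the parts add up when geometric means are used. Of the rise in share of covered length in the stretch, 1.66-fold by geometric means, 47.0% came from peak share (1.27-fold) and 53.0% from relative width (1.31-fold). As listed, without regard to list size, 66.9% of the 1.96-fold rise came from number and 33.1% from width. The larger of the parts changed with the list, since number made up 27.6% of the rise in lists limited to a −log10 q of 3 or more and 57.1% in lists shortened to the same covered length. The split also moved along the stretch. From 43.0 to 43.5 Mb the ratio was 1.79 for peak share and 1.19 for relative width. From 43.5 to 44.0 Mb, where the dense cluster begins, it was 1.29 for peak share and 1.54 for relative width. By bin of 100 kb, both siORCA samples had more peaks as listed than both controls in 26 of the 30 bins, against 17.5% of bins over the genome. Both had the larger share of peak number in 13 of 30, against 13.4% over the genome, and the larger covered length as listed in 28 of 30, against 21.2% over the genome. The stretch was picked for bins of higher covered share, so these counts are not independent of that choice and nothing is read from them.

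**Figure D3:**
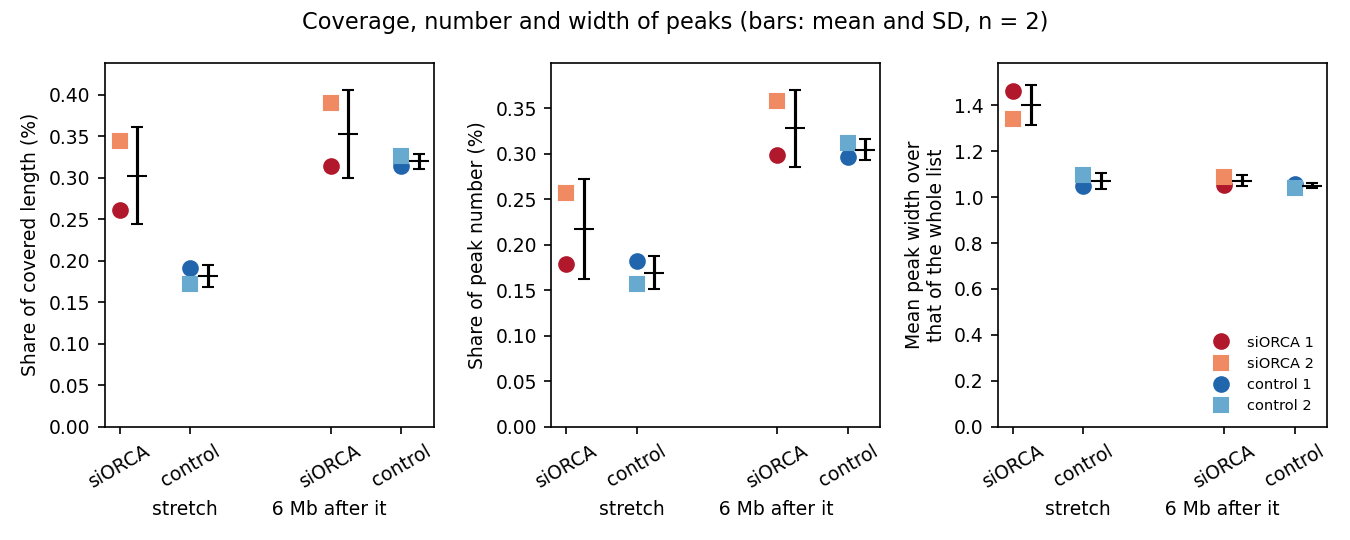
Share of covered length, share of peak number and mean peak width relative to the whole list, for the 3 Mb stretch and for the 6 Mb after it. Points are samples, bars are the mean and SD of 2 samples, and in the stretch the groups are apart in the left and right panels (0.261% and 0.344% against 0.191% and 0.172%, and 1.46 and 1.34 against 1.05 and 1.10) but not in the middle panel.

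The difference in width showed in the long peaks. Peaks over 600 bp made up 18.3% and 22.8% of the peaks of siORCA 1 and siORCA 2 in the stretch, against 11.8% and 12.2% in control 1 and 2. Of all such peaks in a list, the stretch held 0.417% in siORCA 1 and 0.481% in siORCA 2, against 0.182% in control 1 and 0.210% in control 2. Of all peaks up to 150 bp it held 0.105% and 0.153% in siORCA 1 and 2, against 0.124% and 0.133% in control 1 and 2. The short peaks thus overlapped between groups, and the long ones did not. In the 6 Mb after the stretch, the share of all long peaks was 0.347% and 0.435% in siORCA 1 and 2, against 0.345% and 0.382% in control 1 and 2, and the groups overlapped.

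Peaks in the stretch stood closer together in the siORCA samples. The median gap between neighbouring peaks was 2301 bp in siORCA 1 and 2585 bp in siORCA 2, against 3807 bp in control 1 and 4372 bp in control 2. In the other 7 Mb it was 2753 bp and 3579 bp in siORCA 1 and 2, against 4765 bp and 3673 bp in control 1 and 2. The groups did not overlap in either. Within each sample the stretch was also set against the 6 Mb that follow it. Covered length per base was 1.66 and 1.76 times as high in the stretch in siORCA 1 and 2, against 1.22 and 1.05 times in control 1 and 2. For mean width these ratios were 1.39 and 1.23 in siORCA 1 and 2, against 0.990 and 1.05 in control 1 and 2. For number of peaks they were 1.20 and 1.43 in siORCA 1 and 2, against 1.23 and 1.00 in control 1 and 2, so number again overlapped between groups. These ratios differ by peak strength. Each list was divided into 4 equal classes by −log10 q, so a class holds more peaks in a list with more peaks. Of the strongest class, the stretch held 249 and 234 peaks in siORCA 1 and 2, against 133 and 137 in control 1 and 2. As a share of the list's class this was 0.302% in siORCA 1 and 0.294% in control 1, which lay close together. It was 0.471% in siORCA 2 and 0.232% in control 2. The 6 Mb after the stretch held 245 and 189 such peaks in siORCA 1 and 2, against 178 and 195 in control 1 and 2. Of the weakest class the stretch held 73 and 89 in siORCA 1 and 2, against 36 and 64 in control 1 and 2, and the 6 Mb after it held 273 and 200 in siORCA 1 and 2, against 86 and 173 in control 1 and 2. Weak peaks were thus fewer in the stretch than after it in every sample, also per Mb, so the ratio can also vary with how many weak peaks a list holds.

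The lists were next merged into regions wherever peaks of any samples overlapped or touched, which shows whether the added length lay in regions that the control lists also held. A region missing from a list had no called peak there, and whether its site was unused in that sample was not tested. The share of a list's peaks with a −log10 q of 3 or more also differed. It was 64.6% and 56.8% in siORCA 1 and 2, against 35.9% and 41.5% in control 1 and 2. The domain held 2291 merged regions, 792 of them in the stretch. Of those 792, 172 were in all 4 lists, 133 in 3 lists, 109 in both siORCA and neither control list, 5 in both control and neither siORCA list, 49 in 1 list of each group and 324 in 1 list. In the other 7 Mb, 106 of 1499 regions were in both siORCA lists only and 18 in both control lists only. Over the genome, 5.44% of 535576 regions were in both siORCA lists only and 1.67% in both control lists only, and as with the bins nothing is read from these counts. By 1 Mb windows, regions in both siORCA lists only made up 16.3%, 14.0% and 11.8% of regions from 43, 44 and 45 Mb, and from 4.89% to 9.42% in the windows from 46 Mb on. Of the 133 regions in 3 lists, control 2 was the missing list in 62 (46.6%) and control 1 in 56 (42.1%). The missing list was siORCA 1 in 10 (7.52%) and siORCA 2 in 5 (3.76%). Over the genome these shares of regions in 3 lists were 38.9% for control 2 and 35.0% for control 1. They were 13.5% for siORCA 1 and 12.7% for siORCA 2, and nothing is read from these counts either.

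The added length of the stretch was spread over regions that all 4 lists held and regions that some lists lacked. Regions in all 4 lists covered 116277 bp in siORCA 1 and 117081 bp in siORCA 2, against 73075 bp in control 1 and 74866 bp in control 2. Regions in both siORCA lists only covered 31073 bp and 30533 bp in siORCA 1 and 2, against none in the controls by definition. Regions in 3 lists covered 47570 bp and 51866 bp in siORCA 1 and 2, against 22669 bp and 17753 bp in control 1 and 2. Of the rise in share of covered length, 33.5% lay in regions of all 4 lists, 34.5% in regions of both siORCA lists only and 29.3% in regions of 3 lists. In the other 7 Mb, regions in all 4 lists covered 116075 bp and 121295 bp in siORCA 1 and 2, against 108133 bp and 102571 bp in control 1 and 2. By share of the list this was 0.135% and 0.189% in siORCA 1 and 2, against 0.185% and 0.153% in control 1 and 2. The groups overlapped in that share.

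**Figure D4:**
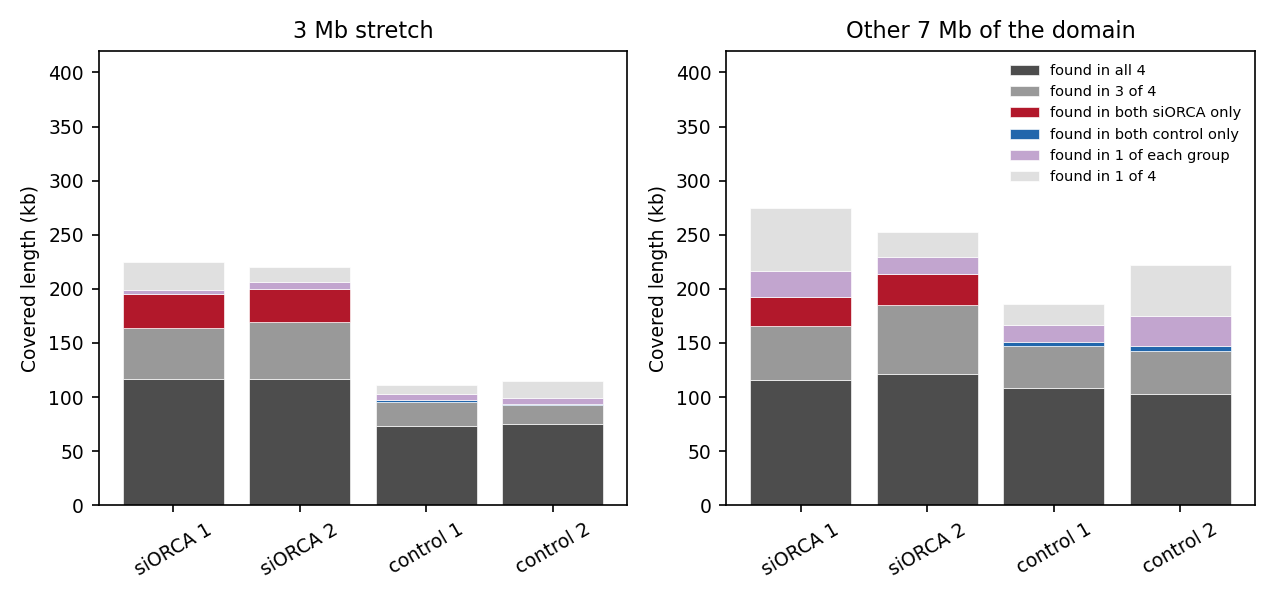
Covered length in kb by sample, divided by the lists in which a merged region was found, for the 3 Mb stretch (left) and the other 7 Mb of the domain (right). In the stretch, regions found in all 4 lists cover 116277 bp and 117081 bp in the siORCA samples and 73075 bp and 74866 bp in the controls, and regions of both siORCA lists only add 31073 bp and 30533 bp.

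At the 172 sites of the stretch that all 4 lists shared, siORCA peaks were both wider and higher in fold enrichment, the authors' value per peak. The median covered length per region was 544 bp in siORCA 1 and 560 bp in siORCA 2, against 335 bp in control 1 and 329 bp in control 2. The median over regions of the siORCA to control ratio was 1.52, against 1.10 at the 234 shared regions of the other 7 Mb and 1.11 over the 57130 shared regions of the genome. Relative to each list's covered length, the median log2 ratio was 0.36 in the stretch, against −0.11 in the other 7 Mb and −0.09 over the genome. In 105 of the 172 regions both siORCA lists covered more than both control lists, and in 11 both covered less. Over the genome these shares were 24.7% and 11.4% of shared regions. Relative to each list's covered length, 62 of the 172 were higher and 13 lower, and 28 and 34 of the 234 in the other 7 Mb, where over the genome 12.5% were higher and 17.2% lower. The stretch was picked for its covered share, so nothing is read from these counts either. The mean number of peaks per shared region was between 1.05 and 1.09 in all 4 samples, so the added length at these sites lay in wider peaks, not in more peaks per region.

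Fold enrichment at these sites had a median of 8.17 in siORCA 1 and 6.47 in siORCA 2, against 4.71 in control 1 and 4.75 in control 2. Each list was called by itself and the lists' depth is unknown, so these values describe the lists. The median over regions of the ratio was 1.52 in the stretch, against 1.29 in the other 7 Mb and 1.25 over the genome. Both siORCA lists were above both control lists in 123 of the 172 regions and below in 6, where over the genome 40.3% of shared regions were above and 5.43% below. The 2 siORCA lists thus had higher fold at shared sites in general, and the stretch lay above that general level by description only.

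**Figure D5:**
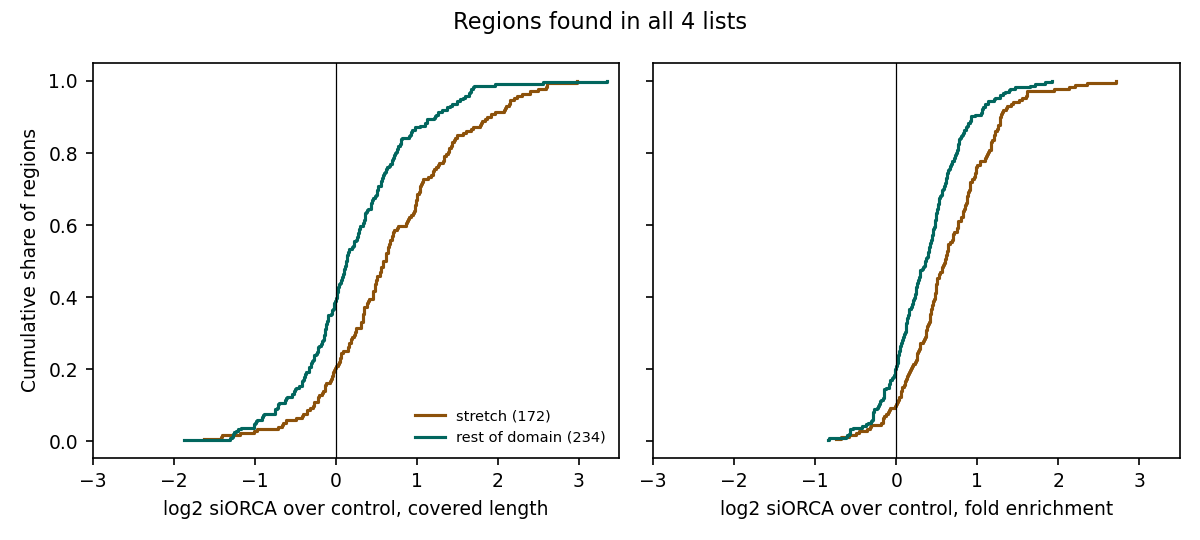
Cumulative share of merged regions found in all 4 lists, by the log2 ratio of siORCA to control (difference of the group means of log2 values) in covered length (left) and in the authors' fold enrichment (right). At the median, the curve of the stretch (172 regions) lies to the right of that of the rest of the domain (234 regions). The median ratios are 1.52 against 1.10 in covered length and 1.52 against 1.29 in fold enrichment. In covered length the curves cross at the low and high ends.

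Single sites show the same forms of change. The widest region of the domain found in all 4 lists ran from 44130870 to 44134225 and lay in the dense cluster. Peaks covered 2328 bp of it in siORCA 1 and 3025 bp in siORCA 2, against 996 bp in control 1 and 970 bp in control 2, and its highest fold was 11.4 and 5.80 in siORCA 1 and 2, against 4.04 and 3.90 in control 1 and 2. The other 2 of the 3 widest lay after the stretch and ran the other way in length. From 49484729 to 49487920, 723 bp and 1504 bp were covered in siORCA 1 and 2, against 1694 bp and 2606 bp in control 1 and 2. From 48306569 to 48309640, 2175 bp and 1952 bp were covered in siORCA 1 and 2, against 2358 bp and 3072 bp in control 1 and 2.

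The 3 widest regions of both siORCA lists only all lay in the stretch. The first ran from 43987260 to 43988920, with 1556 bp covered in siORCA 1 and 984 bp in siORCA 2 at fold values of 6.77 and 5.84. The second, from 44575308 to 44576422, had 1115 bp and 282 bp, and the last, from 43839499 to 43840574, had 519 bp and 947 bp. The 3 widest regions of both control lists only all lay after the stretch and were narrower in total extent, at 1020 bp, 626 bp and 567 bp. Their start positions were 47917722, 48364613 and 47280069.

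Among regions in all 4 lists, the highest mean fold belonged to a site from 45197184 to 45197794 inside the stretch. Its fold was 98.5 in siORCA 1 and 94.7 in siORCA 2, against 30.7 in control 1 and 14.1 in control 2. It covered 520 bp and 548 bp in siORCA 1 and 2, against 572 bp and 323 bp in control 1 and 2, so fold separated the groups and length did not. The next by mean fold was the site at the edge of the gap, from 42986541 to 42987039, at 17.9 and 48.6 in siORCA 1 and 2, against 59.9 and 32.0 in control 1 and 2. The next after that, from 43609701 to 43610114, had 47.5 and 38.7 in siORCA 1 and 2, against 21.5 and 29.98 in control 1 and 2. The groups overlapped at the gap and did not at the site from 43609701.

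The distance of regions in both lists of 1 group only to regions of all 4 lists, here called constant sites, was also measured. For regions of both siORCA lists only in the stretch, the median distance to the nearest region of all 4 lists was 4.28 kb, and 79 of 109 lay within 10 kb, 20 of them within 1 kb. In the other 7 Mb the median was 6.34 kb, with 59 of 106 within 10 kb. Over the genome the median was 10.5 kb, with 49.0% of 29110 within 10 kb. For regions of both control lists only, 4 of 5 in the stretch lay within 10 kb at a median of 1.37 kb, 10 of 18 in the other 7 Mb at 7.76 kb, and 38.6% of 8957 over the genome at 17.8 kb. Nearness to constant sites was thus found for both kinds of region. Constant sites were denser in the stretch, with 172 in 3 Mb against 234 in the other 7 Mb, and the part of that density in the distances was not tested.

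Compared with other parts of the genome cut on the same grid, the domain was near the top but not alone. Among 288 windows of 10 Mb with at least 0.01% of covered length on average, the log2 ratio of mean shares had rank 3, at 0.38 against a median of −0.07. Above it stood the windows starting at 122 Mb of chromosome 1 (0.39) and of chromosome 8 (0.38). On chromosome 8 the groups overlapped, at 0.343% and 0.577% in siORCA 1 and 2, against 0.381% and 0.326% in control 1 and 2. Among 950 windows of 3 Mb, the window from 43 to 46 Mb had rank 2 at 0.74, against a median of −0.12, after a window on chromosome 1 from 142 Mb at 0.78. The 3 Mb window on chromosome 1 held 0.104% and 0.111% of covered length in siORCA 1 and 2, against 0.0584% and 0.0670% in control 1 and 2. With the rule for runs of bins applied to each chromosome, the run on chromosome 10 had the largest sum, 22, followed by a run of 21 bins on chromosome 1 from 142.3 to 144.4 Mb with a sum of 15 and one on chromosome 2 from 89.3 to 90.7 Mb with a sum of 8. The grid was placed on the domain after its values were known, and these ranks are not a test.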

How the data were processed

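NS-seq peaks were listed for 2 siORCA and 2 control samples of U2OS cells. Per the submitters' processing notes, the tools were BWA, SAMtools and MACS2 and the build T2T-CHM13. The sources used here do not give versions, settings or the caller's background. The authors deposited 1 list per sample, so peaks were not called on pooled replicates. Each deposited peak has a position, a score, a fold enrichment (a linear ratio) and −log10 values of p and q, per the files' broadPeak layout. The score and the −log10 p-value were not used in any result.

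Members, gene list and rules were chosen with earlier results of these data known. Peaks were placed in 100 kb bins by start, with whole width. A bin or region was counted as higher when both siORCA values exceeded both control values. Peaks of the 4 lists that overlapped or touched were merged into regions. The text names the 5 bins with the largest and 3 with the lowest difference, and the 3 widest regions of each class and the 3 with the highest mean fold. No test was run, since the contrast chose the domain. The run finder was tested on simulated data. The alternatives were a −log10 q of at least 3, lists shortened to the same covered length, each sample left out, replicate pairing, peaks joined over 1 kb, a chromosome 10 denominator, bins of 50 kb and 200 kb, shifted bins, peaks cut at bin edges and edges set by summed difference. Python 3.11.15, numpy 2.4.6, pandas 2.3.3 and matplotlib 3.10.9 were used. Gene names came from the GRCh38.p14 RefSeq table, in which 30 of 30 matched.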

Additional observations from a re-analysis of the deposited data

How the results depend on the processing

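Apart from leaving samples out, 10 alternatives gave 53 values, of which 40 kept their sign and moved by less than the limits used. These were 1.5 times for counts, 0.1 Mb for edges and, for log2 ratios, the root of the summed replicate variances of both groups. For peak share and mean width in the domain, that limit (0.258 and 0.240) exceeded the log2 ratio itself (0.197 and 0.127). For these measures, staying within the limit therefore says little. In lists cut to peaks whose −log10 q was 3 or more, the log2 ratio of peak share in the domain turned to −0.0083, against 0.20 in the full lists, and the run of higher bins went from 43.7 to 44.5 Mb. The run began at 43.4 Mb with lists of the same covered length, with 50 kb bins and with peaks cut at bin edges, at 43.7 Mb with peaks joined over 1 kb, and at 42.5 Mb with edges set by the summed difference. It ended at 46.35 Mb with bins moved by 50 kb and at 51.3 Mb with the summed difference, where the log2 ratio of its share was 0.41. Higher bins numbered 66 with 50 kb bins and 21 with 200 kb bins, against 42. The cause of these moves was not tested, other than bin size, which sets how many bins there are.

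With samples left out in turn, the run began at 43.0 Mb each time and ended between 46.0 and 51.3 Mb, the log2 ratio of its share ran from 0.39 to 0.58, and the number of higher bins from 48 to 60. Fewer values then have to be apart, so the number of higher bins could not fall below 42. Nothing is therefore read from these counts or from the edges of these runs. In the domain, the log2 ratio ran from 0.20 to 0.54 for covered share, from 0.0039 to 0.37 for peak share and from −0.026 to 0.26 for mean width, the lowest of each without siORCA 2. With the replicate block, siORCA 1 paired with control 1 and siORCA 2 with control 2, the run again went from 43.0 to 46.0 Mb at a log2 ratio of 0.73, with 47 higher bins. This rule is also looser, since each siORCA sample is set against 1 control sample only.

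In the stretch, the share of the rise that came from number rather than width was 27.6% with the stricter list, 57.1% at the same covered length and 35.1% with peaks joined, against 47.0%. Depth is unknown, and the lists differ in length and in the strength of their peaks. Lists of the same covered length gave 41 higher bins and a log2 ratio of 0.88 over the run. Equal covered length does not make read depth equal, and the part of depth in the rise was not tested.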
